A study of Mus musculus with 15 samples.

Results

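The genes described here build, load and drive cilia, in optic tissue grown from mouse embryonic stem cells. They were taken by symbol from the table of 23244 gene entries: every Ift and Bbs gene with a number, every axonemal dynein heavy chain (Dnahc) and intermediate chain (Dnaic) gene with a number, and the transcription factor genes Foxj1, Rfx2 and Rfx3. This gave 37 genes, of which 21 serve the primary cilium (13 Ift and 8 Bbs genes), 13 encode dyneins of motile cilia, and 3 encode transcription factors. The rule used names only and no measured value, although it was set with earlier results of these data known.

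The study followed optic tissue made by SFEBq, in which reaggregated embryonic stem cells form a continuous Rx::GFP+ eye epithelium, through 2 signalling conditions. All 15 libraries came from a single stem cell line, EB5 Rx::GFP+/-, kept before aggregation with the GSK3 inhibitor CHIR99201 and a MEK inhibitor, and all tissue was cut with forceps as GFP+ epithelium at Day 10. The Day 10 Rx::GFP+ libraries were collected then, the Day 12 +Fgf and Day 15 +Fgf libraries after culture with 5 ng/mL bFgf and 10% serum, and the Day 12 +Wnt and Day 15 +Wnt libraries after 3 uM CHIR99201 for 24 hours and 1 uM from then on. Each of the 5 groups had 3 biological replicates. Both stimulations took place in retinal maturation medium, into which the cut tissue was moved at Day 10. No library came from unstimulated tissue after Day 10. Serum was added with bFgf and not with CHIR99201, so that bFgf and serum cannot be told apart in any difference between the stimulations.

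A cilium is built on a centriole, and because it contains no ribosomes its parts are carried in by intraflagellar transport. The IFT-B complex, pulled by kinesin, goes towards the tip, the IFT-A complex, pulled by cytoplasmic dynein, returns, and the BBSome is an adaptor that moves membrane proteins, chiefly out of the cilium. A primary cilium is single and immotile and serves in signalling, including Hedgehog signalling, in retinal progenitors and in the pigment epithelium, and the photoreceptor outer segment is a modified primary cilium. Motile cilia also need axonemal dynein arms: the outer arms carry the heavy chains DNAH5, DNAH8, DNAH9, DNAH11 and DNAH17 and the intermediate chains DNAI1 and DNAI2, the inner arms the other heavy chains. FOXJ1 switches on the motile programme, and RFX factors bind X-box motifs at the genes of both kinds of cilium.

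Each library held between 12556998 and 16175450 reads on genes, so that 1 read was worth 0.0620 to 0.0764 CPM, the read count scaled to the size of the library as deposited. Genes with at least 1 CPM in at least 3 libraries were tested with limma on log2(CPM + 0.3), and every difference below is on this log2 scale with its standard error, which understates the change of genes with few reads. The adjusted p-values are Benjamini-Hochberg values over the 13845 genes tested, with a threshold of 0.05. All 21 Ift and Bbs genes, Foxj1, Rfx2 and Rfx3 passed this filter, whereas 8 of the 13 dynein genes did. In this bulk tissue, fewer cells of a type and less RNA per cell cannot be told apart.

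The labelled tissues carried their markers. The summed level of 7 neural retina progenitor markers was, in CPM, 1722 to 1827 at Day 15 +Fgf and 344 to 393 at Day 15 +Wnt, and that of 7 pigment epithelium markers was 235 to 305 at Day 15 +Fgf and 5212 to 6745 at Day 15 +Wnt. Other marker lists moved with the stimulation as well. The sum of 9 choroid plexus markers was, in CPM, 73.5 to 229 at Day 15 +Fgf and 1547 to 2092 at Day 15 +Wnt, although Kl of that list stayed at or under 0.496 CPM in every library. Whether this sum came from choroid plexus cells or from the pigment epithelium itself was not tested. The sum of 8 proliferation markers was, in CPM, 2425 to 2541 at Day 15 +Fgf and 985 to 1052 at Day 15 +Wnt. The sum of 8 neuron markers (Pou4f2, Atoh7, Isl1, Elavl3, Elavl4, Stmn2, Tubb3 and Dcx), not all of them particular to the retina, was, in CPM, 1800 to 1935 at Day 15 +Fgf and 1260 to 1581 at Day 15 +Wnt. These levels accompany each difference between the stimulations reported below, and their part in it was not tested.

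Per length of transcript, the primary cilium genes lay far above the dynein genes. Averaged over the 5 groups, the level of the 21 Ift and Bbs genes ran from 3.63 CPM per kb (Bbs10) to 40.8 CPM per kb (Ift74), with a median of 7.7, whereas the 13 dynein genes ran from 0.0229 (Dnahc10) to 0.804 CPM per kb (Dnahc11), with a median of 0.0837. Thus the highest dynein gene remained below the lowest Ift or Bbs gene. Of the factors, Rfx3 stood at 22.7 CPM per kb, Foxj1 at 4.13 and Rfx2 at 4.07. In reads, an Ift or Bbs gene had between 74 and 1731 in a library, while the 8 tested dynein genes had between 0 and 247.

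The RFX motif was looked for at the members' own promoters, since Rfx2, Rfx3 and their targets were both among the genes measured. A 14-base form of the X-box, GTNNCC, then NNN, then GNAAC without gaps, on either strand, was searched in RefSeq promoter windows of 300 bases (250 before to 50 after the start, assembly GRCm38.p6). A window was listed for 33 of the 37 genes, all but Ift122, Ift80, Ift81 and Foxj1. The motif was found in 5 of these (15.2%), 1 of 10 Ift, 3 of 8 Bbs and 1 of 13 dynein genes, beside 673 of all 27025 genes with a window (2.49%). The stretches of 30 bases that hold a match are given on the strand of the gene, with the match in capitals. In Ift57 (chr16:49699199-49699228, plus strand), Bbs7 (chr3:36613489-36613518, minus strand) and Dnahc17 (chr11:118129357-118129386, minus strand) the match begins 87, 121 and 159 bases before the start, respectively. In Bbs1 (chr19:4906605-4906634, minus strand) and Bbs4 (chr9:59353464-59353493, minus strand) it lies just after the start. All starts here are those of the RefSeq windows. In the GENCODE annotation used for gene positions, Dnahc17 spans chr11:118021723-118130634 (minus strand), so that its stretch lies inside the gene.
Ift57: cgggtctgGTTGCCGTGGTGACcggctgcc
Bbs7: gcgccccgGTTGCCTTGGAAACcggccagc
Bbs1: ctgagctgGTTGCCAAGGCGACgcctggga
Bbs4: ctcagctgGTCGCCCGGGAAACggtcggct
Dnahc17: acgcccttGTCACCAGCGCAACcacagata
The match of Bbs7 reads as the motif on both strands. A match in these letters is a description of the window and not of binding.

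Foxj1, the forkhead factor that switches on the motile cilium programme, was higher in +Wnt than in +Fgf on both days, and in Day 12 by the largest difference of the 32 members tested (gene at chr11:116330704-116335399, minus strand, mm10). It measured, in CPM, 7.56, 5.48 and 9.17 at Day 10, 3.42, 6.18 and 1.98 at Day 12 +Fgf, 13.3, 18.3 and 19.7 at Day 12 +Wnt, 2.21, 3.23 and 1.91 at Day 15 +Fgf and 26.5, 22.3 and 21.3 at Day 15 +Wnt. Every +Wnt library exceeded every Day 10 library and every +Fgf library, and every Day 15 +Fgf library was below all Day 10 libraries. Foxj1 was lower in +Fgf than in +Wnt by -2.17 ± 0.29 at Day 12 (adjusted p = 9.14e-06) and by -3.13 ± 0.29 at Day 15 (adjusted p = 6.18e-08), both by limma. From Day 10 to Day 12 it rose in +Wnt (1.18 ± 0.29, adjusted p = 0.00223) and fell in +Fgf (-0.99 ± 0.29, adjusted p = 0.00859), and both of these differences share the Day 10 libraries. The fall in +Fgf rested on Day 12 +Fgf replicate 3, the lowest library of its group, without which it was -0.62 and not past the threshold, and it was also lost with RNA integrity as a covariate. Between Day 12 and Day 15 neither change passed the threshold (0.46 ± 0.29 in +Wnt, adjusted p = 0.173; -0.50 ± 0.29 in +Fgf, adjusted p = 0.157).

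Rfx3 and Rfx2, which encode RFX factors of ciliogenesis, differed less than Foxj1 between the stimulations in size. Rfx3 (chr19:27761721-28011166, minus strand) was the more abundant and nearly level, in CPM 57.3, 64.5 and 62.1 at Day 10, 62.6, 62.2 and 61.8 at Day 12 +Fgf, 69.4, 67.2 and 72.6 at Day 12 +Wnt, 64.2, 60.9 and 56.3 at Day 15 +Fgf and 55.0, 64.6 and 54.6 at Day 15 +Wnt. It rose by 0.19 ± 0.07 from Day 10 to Day 12 +Wnt (adjusted p = 0.0266), where every library lay above all Day 10 libraries, and fell by 0.27 ± 0.07 on the log2 scale from Day 12 to Day 15 in +Wnt (adjusted p = 0.00236). The rise was lost without Day 10 replicate 1, Day 12 +Wnt replicate 1 or Day 12 +Wnt replicate 3.
Rfx2 (chr17:56775897-56831013, minus strand) measured, in CPM, 13.1, 15.4 and 14.7 at Day 10, 11.0, 13.6 and 7.54 at Day 12 +Fgf, 19.5, 17.2 and 14.3 at Day 12 +Wnt, 15.9, 14.9 and 14.9 at Day 15 +Fgf and 11.2, 11.4 and 9.82 at Day 15 +Wnt. Its order turned over with time: it was lower in +Fgf than in +Wnt at Day 12 (-0.68 ± 0.16, adjusted p = 0.00205) and higher at Day 15 (0.49 ± 0.16, adjusted p = 0.0133), with no overlap between the groups on either day. It fell in +Wnt from Day 12 to Day 15 (-0.63 ± 0.16, adjusted p = 0.00231) and rose in +Fgf (0.54 ± 0.16, adjusted p = 0.00934), and the difference between these 2 changes was 1.17 ± 0.23 (adjusted p = 0.000496). The rise in +Fgf was lost without Day 12 +Fgf replicate 3, and the Day 15 difference without Day 15 +Wnt replicate 3. Both were also lost with RNA integrity as a covariate. Against Day 10, Rfx2 was lower at Day 12 +Fgf (-0.46 ± 0.16, adjusted p = 0.0236), a call lost without Day 12 +Fgf replicate 3 or Day 10 replicate 2 or 3.

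**Figure D1:**
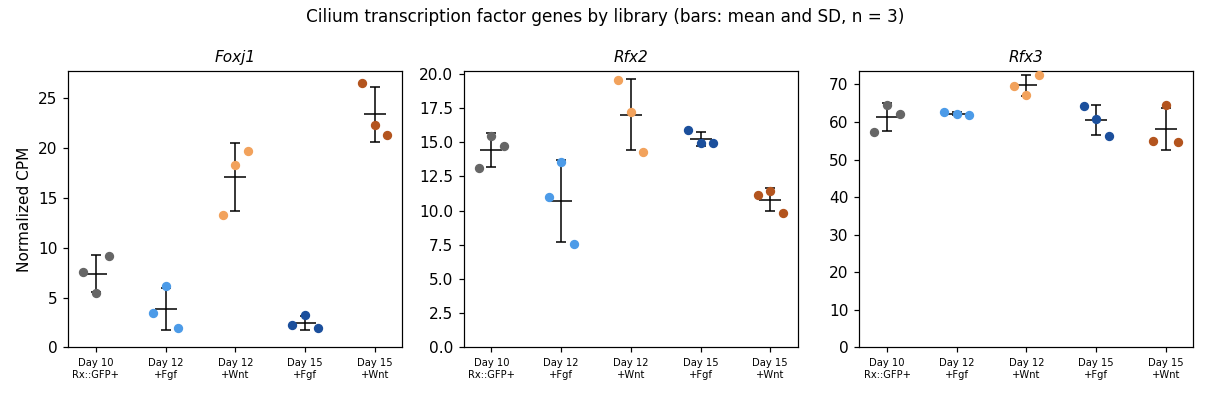
Normalized CPM (linear axis from 0) of Foxj1, Rfx2 and Rfx3 in each of the 15 libraries, with points for libraries and bars for the mean and SD of each group (n = 3). The +Wnt libraries of Foxj1 sit between 13.3 and 26.5 CPM and all others at or under 9.17 CPM, while Rfx3 stays between 54.6 and 72.6 CPM.

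From Day 10 to Day 12, most genes of the primary cilium rose in each stimulation. In Day 12 +Fgf against Day 10, 17 of the 21 Ift and Bbs genes were higher and 0 lower, with a median difference of 0.34 beside -0.0021 over all genes tested, of which 27.9% were higher and 27.8% lower. In Day 12 +Wnt against Day 10, 14 were higher and 0 lower, with a median of 0.32 beside 0.0085, where 30.6% of all genes tested were higher and 29.6% lower. Over all 32 members tested, the counts were 18 higher and 4 lower in +Fgf (background 55.7% in either direction) and 18 higher and 1 lower in +Wnt (background 60.2%). With edgeR on recovered reads the counts over all members were 20 and 19. With RNA integrity as a covariate the +Fgf count was 14, and that over all genes tested was 5608 in place of 7716. Integrity was higher in every Day 12 +Fgf library than in every Day 10 library. The +Wnt count was 17 or more under each alternative. The same Day 10 libraries served both comparisons. Without unstimulated Day 12 libraries, a rise shared by both stimulations cannot be told apart from time in culture, cutting and the new medium. Other marker lists moved over the same days: the sum of the 8 neuron markers in CPM was 85.6 to 152 at Day 10, 297 to 322 after Fgf and 565 to 796 after Wnt stimulation, and that of the proliferation markers 2227 to 2416, 2725 to 2941 and 2284 to 2336, respectively. The neuron markers did not move as 1: 3 were higher and 5 lower in Day 12 +Fgf than in Day 12 +Wnt, beside 26.3% and 25.2% of all genes tested. The part of these lists in the rise of the primary cilium genes was not tested. Summed over the 21 genes, the level in CPM was 568 to 596 at Day 10, 720 to 731 at Day 12 +Fgf and 708 to 714 at Day 12 +Wnt.

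Ift172 and Ift122 had the largest rises of the Ift and Bbs genes in +Fgf, and both rose in +Wnt too. Ift172, the largest IFT-B subunit, measured, in CPM, 24.5, 23.1 and 24.1 at Day 10, 40.9, 39.2 and 38.5 at Day 12 +Fgf, 39.1, 35.1 and 35.4 at Day 12 +Wnt, 41.0, 40.2 and 37.8 at Day 15 +Fgf and 38.0, 37.5 and 33.6 at Day 15 +Wnt. It rose by 0.72 ± 0.07 to Day 12 +Fgf (adjusted p = 1.6e-07) and by 0.60 ± 0.07 to Day 12 +Wnt (adjusted p = 8.26e-07), and all 12 later libraries lay above the Day 10 libraries. Ift122, a subunit of the returning IFT-A complex, measured, in CPM, 24.3, 24.1 and 23.6 at Day 10, 37.3, 35.4 and 36.6 at Day 12 +Fgf, 31.1, 30.1 and 29.1 at Day 12 +Wnt, 34.1, 35.0 and 36.3 at Day 15 +Fgf and 32.3, 31.2 and 28.0 at Day 15 +Wnt. It rose by 0.60 ± 0.06 to Day 12 +Fgf and by 0.32 ± 0.06 to Day 12 +Wnt, and it was higher in +Fgf than in +Wnt by 0.27 ± 0.06 at Day 12 (adjusted p = 0.0018).

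Ift57, an IFT-B subunit whose promoter holds the motif shown above, separated the stimulations already at Day 12. It measured, in CPM, 29.8, 29.5 and 33.9 at Day 10, 45.6, 47.0 and 47.9 at Day 12 +Fgf, 24.5, 30.9 and 28.1 at Day 12 +Wnt, 43.7, 45.1 and 51.4 at Day 15 +Fgf and 34.4, 32.7 and 32.6 at Day 15 +Wnt. The +Fgf libraries of both days exceeded all others. Ift57 rose in +Fgf (0.59 ± 0.08, adjusted p = 1.9e-05) and not past the threshold in +Wnt (-0.16 ± 0.08, adjusted p = 0.109), and the difference between Day 12 +Fgf and Day 12 +Wnt was 0.75 ± 0.08 (adjusted p = 1.17e-06).

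Of the BBSome subunits, Bbs9 and Bbs7 rose most in +Wnt. Bbs9 measured, in CPM, 14.9, 17.4 and 13.5 at Day 10, 18.4, 16.8 and 18.4 at Day 12 +Fgf, 26.5, 26.5 and 23.8 at Day 12 +Wnt, 20.3, 22.5 and 20.4 at Day 15 +Fgf and 27.9, 24.8 and 25.7 at Day 15 +Wnt. Its rise to Day 12 +Wnt was 0.74 ± 0.09 (adjusted p = 4.32e-06). Bbs9 was lower in +Fgf than in +Wnt at Day 12 (-0.51 ± 0.09, adjusted p = 0.000228) and at Day 15 (-0.31 ± 0.09, adjusted p = 0.0078). The Day 15 difference went against the direction of most Ift genes and was lost with RNA integrity as a covariate. At Day 12 most Ift genes did not differ past the threshold. Bbs7 measured, in CPM, 10.5, 11.2 and 9.32 at Day 10, 13.3, 14.7 and 9.84 at Day 12 +Fgf, 16.4, 16.4 and 14.8 at Day 12 +Wnt, 16.7, 17.3 and 21.5 at Day 15 +Fgf and 18.4, 17.3 and 17.6 at Day 15 +Wnt. It rose to Day 12 +Wnt by 0.60 ± 0.13 (adjusted p = 0.000852), and in +Fgf it rose between Day 12 and Day 15 (0.55 ± 0.13, adjusted p = 0.00183). Its Day 12 difference between the stimulations (-0.34 ± 0.13, adjusted p = 0.039) was lost without Day 12 +Fgf replicate 3, the lowest library of the group, or without Day 12 +Wnt replicate 1 or 2.

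Bbs1, a further BBSome subunit, rose in +Wnt at Day 12 and in +Fgf only between Day 12 and Day 15, a rise lost with RNA integrity as a covariate. It measured, in CPM, 20.4, 21.3 and 21.4 at Day 10, 19.3, 22.6 and 20.6 at Day 12 +Fgf, 29.9, 24.6 and 28.7 at Day 12 +Wnt, 27.9, 23.9 and 26.1 at Day 15 +Fgf and 27.5, 29.7 and 29.4 at Day 15 +Wnt. The Day 12 difference between +Fgf and +Wnt was -0.41 ± 0.09 (adjusted p = 0.000771), with no overlap, and at Day 15 it was -0.15 ± 0.09 (adjusted p = 0.124). Bbs12, a chaperonin-like protein of BBSome assembly, went the other way, in CPM 14.6, 12.7 and 14.0 at Day 10, 21.0, 17.8 and 21.1 at Day 12 +Fgf, 14.6, 15.9 and 15.3 at Day 12 +Wnt, 15.4, 14.4 and 16.5 at Day 15 +Fgf and 14.6, 11.5 and 13.7 at Day 15 +Wnt. Only its Day 12 +Fgf libraries stood above the rest, with a rise of 0.53 ± 0.10 from Day 10 (adjusted p = 0.000424) and a fall by 0.36 ± 0.10 on the log2 scale to Day 15 (adjusted p = 0.0065). This fall was lost with RNA integrity as a covariate.

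**Figure D2:**
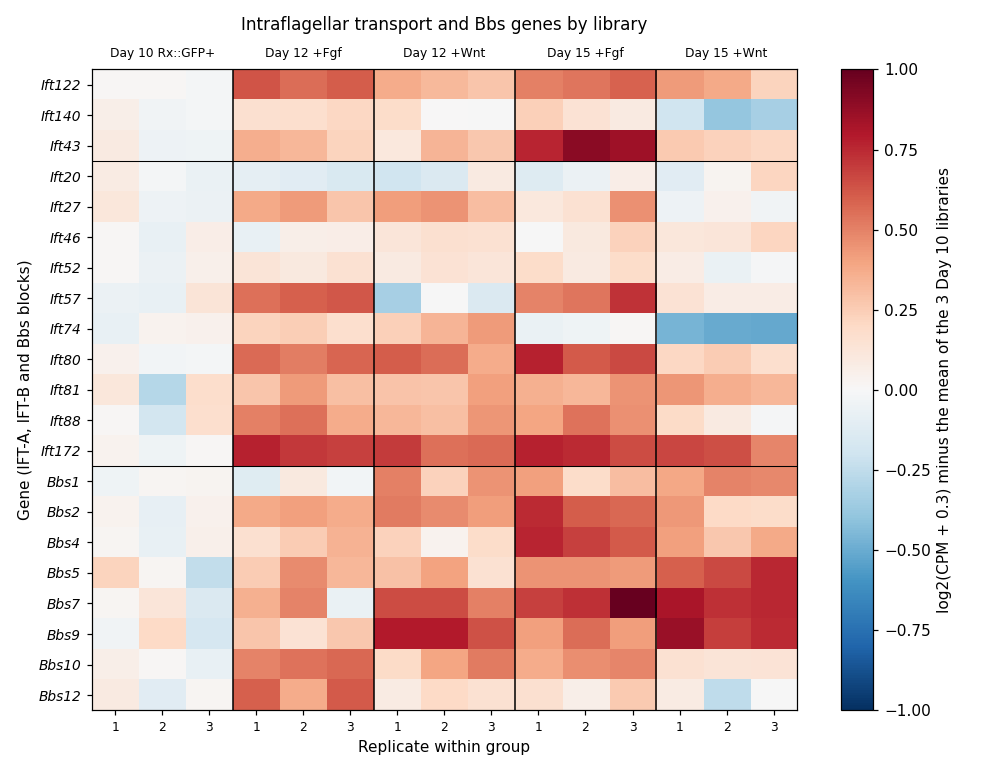
Heat map of the 13 Ift and 8 Bbs genes (rows) in the 15 libraries (columns), where colour gives log2(CPM + 0.3) minus the mean of the 3 Day 10 libraries. Most rows turn red after Day 10 in both stimulations, Ift43 is darkest in Day 15 +Fgf, and Ift74 and Ift140 are blue in Day 15 +Wnt.

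At Day 12 itself, 6 of the 21 Ift and Bbs genes differed between the stimulations. In Day 12 +Fgf against Day 12 +Wnt, 11 of 32 members passed the threshold (4 higher and 7 lower in +Fgf), beside 51.5% of all genes tested (26.3% higher and 25.2% lower), so that the members' share was below the background. Of the 21 Ift and Bbs genes 3 were higher (Ift57, Bbs12 and Ift122) and 3 lower (Bbs9, Bbs1 and Bbs7), with a median of 0.045 beside -0.0021 over all genes.

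Between Day 12 and Day 15 genes of both kinds of cilium changed in each stimulation, at a share below the background. In Day 15 +Fgf against Day 12 +Fgf, 12 of 32 members changed (9 higher, 3 lower; background 57.1%, with 27.2% higher and 29.9% lower), among them 6 Ift and Bbs genes higher and 2 lower. In Day 15 +Wnt against Day 12 +Wnt, 17 of 32 members changed (8 higher, 9 lower; background 68.0%, with 32.5% higher and 35.5% lower), among them 3 Ift and Bbs genes higher and 6 lower. The +Fgf libraries of the 2 days did not overlap in 7 of the 21 genes with the higher values at Day 15, and in 3 with the lower, beside 30.4% and 33.3% of all genes tested. The medians of the 21 genes were 0.043 in +Fgf and -0.0059 in +Wnt, beside -0.019 and -0.021 over all genes tested. The counts in each direction over all 32 members depended on the scaling. With quantile normalization they were 5 higher and 5 lower in +Fgf and 3 higher and 12 lower in +Wnt. With RNA integrity as a covariate, 2 members remained past the threshold in +Fgf, Ift43 and Bbs7. Over all 13845 genes tested, 3591 remained of 7899.

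Ift74 fell in both stimulations, and Ift43 rose in +Fgf. Ift74, which with Ift81 binds tubulin for transport, measured, in CPM, 81.2, 87.4 and 87.9 at Day 10, 99.7, 101 and 96.2 at Day 12 +Fgf, 101, 108 and 115 at Day 12 +Wnt, 81.6, 83.0 and 86.4 at Day 15 +Fgf and 61.7, 60.3 and 59.9 at Day 15 +Wnt. The Day 15 +Wnt libraries were the lowest of all, and the fall from Day 12 to Day 15 was -0.82 ± 0.05 in +Wnt (adjusted p = 6.28e-10) and -0.24 ± 0.05 in +Fgf (adjusted p = 0.000662). The fall in +Fgf was lost with RNA integrity as a covariate. Ift43, a small IFT-A subunit, measured, in CPM, 25.8, 23.3 and 23.5 at Day 10, 31.1, 30.5 and 28.2 at Day 12 +Fgf, 26, 30.6 and 29.2 at Day 12 +Wnt, 41.1, 45.3 and 43.7 at Day 15 +Fgf and 29.0, 28.3 and 27.8 at Day 15 +Wnt. It rose by 0.53 ± 0.07 from Day 12 to Day 15 in +Fgf (adjusted p = 9.77e-06), while the change in +Wnt was -0.01 ± 0.07 (adjusted p = 0.942).

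Ift140, an IFT-A subunit, measured, in CPM, 42.7, 40.0 and 40.5 at Day 10, 45.9, 46.1 and 47.5 at Day 12 +Fgf, 46.6, 41.2 and 40.9 at Day 12 +Wnt, 48.4, 45.5 and 43.7 at Day 15 +Fgf and 35.8, 31.3 and 32.5 at Day 15 +Wnt. Its Day 15 +Wnt libraries fell below every other library (-0.37 ± 0.07 against Day 12 +Wnt, adjusted p = 0.00012). Ift27, a small GTPase of IFT-B that links transport to the BBSome, rose and fell again in +Wnt, in CPM 20.0, 17.8 and 17.7 at Day 10, 24.8, 25.3 and 22.9 at Day 12 +Wnt and 17.8, 19.0 and 18 at Day 15 +Wnt, with 24.1, 24.9 and 22.4 at Day 12 +Fgf and 19.8, 20.5 and 25.4 at Day 15 +Fgf. Its fall in +Wnt was -0.41 ± 0.09 (adjusted p = 0.000854), and in +Fgf the groups overlapped.

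Bbs4 and Bbs5, both BBSome subunits, rose between Day 12 and Day 15 in +Wnt, and Bbs4 in +Fgf as well. Bbs4 measured, in CPM, 20.2, 18.9 and 20.7 at Day 10, 22.4, 23.9 and 25.4 at Day 12 +Fgf, 23.5, 20.5 and 22.6 at Day 12 +Wnt, 34.1, 32.3 and 30.7 at Day 15 +Fgf and 26.6, 24.1 and 26 at Day 15 +Wnt. The rise was 0.43 ± 0.08 in +Fgf (adjusted p = 0.000152), which was lost with RNA integrity as a covariate, and 0.20 ± 0.08 in +Wnt (adjusted p = 0.0272), which was lost without Day 12 +Wnt replicate 2 or Day 15 +Wnt replicate 1 or 3. Bbs4 shares 194 exon bases with Adpgk on the other strand, whose mean in CPM was 42.3 at Day 10 and 30.3 at Day 15 +Fgf. Bbs5 measured, in CPM, 7.97, 6.89 and 5.65 at Day 10, 8.11, 9.49 and 8.62 at Day 12 +Fgf, 8.37, 9.05 and 7.55 at Day 12 +Wnt, 9.37, 9.34 and 9.19 at Day 15 +Fgf and 10.4, 10.9 and 11.6 at Day 15 +Wnt, where the rise from Day 12 was 0.39 ± 0.12 (adjusted p = 0.00966). In +Fgf the 2 days overlapped for Bbs5 (0.09 ± 0.12, adjusted p = 0.562).

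At Day 15, 9 of the 13 Ift genes and 3 of the 8 Bbs genes were higher in +Fgf than in +Wnt. In Day 15 +Fgf against Day 15 +Wnt, 21 of 32 members passed the threshold, 14 higher and 7 lower in +Fgf, beside 68.7% of all genes tested (38.0% higher and 30.6% lower), a share close to the background. Among the 21 Ift and Bbs genes 12 were higher and 1 lower, with a median of 0.22 beside 0.051 over all genes. The 1 lower gene was Bbs9. The groups did not overlap in 12 of the 21 genes with +Fgf higher and in 2 with +Fgf lower, beside 40.4% and 32.6% of all genes tested. The 21 genes summed, in CPM, to 740 to 771 at Day 15 +Fgf and 634 to 658 at Day 15 +Wnt. The largest differences past the threshold were those of Ift43 (0.60 ± 0.07, adjusted p = 1.31e-06), Ift57 (0.49 ± 0.08, adjusted p = 7.05e-05) and Ift80 (0.47 ± 0.06, adjusted p = 3.87e-06). Ift80, an IFT-B subunit, measured, in CPM, 41.0, 39.2 and 39.4 at Day 10, 59.3, 57.0 and 59.9 at Day 12 +Fgf, 60.8, 58.8 and 51.6 at Day 12 +Wnt, 68.2, 61.1 and 63.2 at Day 15 +Fgf and 46.0, 47.5 and 44.9 at Day 15 +Wnt. With RNA integrity as a covariate 10 members remained past the threshold: Ift43, Ift57, Ift74, Ift80, Ift140, Foxj1, Dnahc6, Dnahc8, Dnahc9 and Dnahc11. Over all 13845 genes tested, 6362 remained of 9505.

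The other 7 Ift and Bbs genes ranged from 7.56 to 69.8 CPM over all libraries. Ift88, long used to remove cilia in mouse mutants, rose to Day 12 in both stimulations (0.48 ± 0.09 in +Fgf, 0.36 ± 0.09 in +Wnt) and was higher in Day 15 +Fgf than in Day 15 +Wnt (0.37 ± 0.09, adjusted p = 0.00215). This Day 15 difference was lost with RNA integrity as a covariate. Bbs2, Bbs10 and Ift81 also rose to Day 12 in both. Ift52 rose by 0.13 ± 0.05 in +Fgf and 0.12 ± 0.05 in +Wnt, calls that were lost with edgeR on recovered reads. Ift20, which also works at the Golgi, and Ift46 passed the threshold in none of the 6 comparisons, with limma values of adjusted p from 0.25 to 0.772 for Ift20 and 0.0552 to 0.926 for Ift46.

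The dynein genes of motile cilia were few in reads and followed another order. Those under the filter, Dnahc7a, Dnahc10, Dnahc17, Dnaic1 and Dnaic2, ranged from 0 to 1.43 CPM, or 0 to 23 reads, in a library. Of the 8 tested, 1 was higher and 5 were lower in Day 15 +Fgf than in Day 15 +Wnt, with a median of -0.97 beside 0.051 over all genes, of which 38.0% were higher and 30.6% lower. In Day 15 +Wnt against Day 12 +Wnt, 5 were higher and 1 lower (median 0.64 beside -0.021, with 32.5% and 35.5% of all genes). The share of the 8 called in either direction was near the background of 68.7% and 68.0% in these comparisons. In Day 15 +Fgf against Day 12 +Fgf, 2 were higher and 1 lower, beside 27.2% and 29.9% of all genes. Since a dynein gene passed the filter through the groups in which it was high, these counts describe the 8 genes and not all 13.

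Dnahc6, an inner arm heavy chain (chr6:73017606-73221651, minus strand), was near 0 except in Day 15 +Wnt. It measured, in CPM, 0, 0.0669 and 0.229 at Day 10, 0.0634, 0.637 and 0.128 at Day 12 +Fgf, 0.503, 0.278 and 0.265 at Day 12 +Wnt, 0.147, 0.275 and 0.0707 at Day 15 +Fgf and 4.09, 4.10 and 2.67 at Day 15 +Wnt. These last values came from 66, 55 and 38 reads, and those of Day 15 +Fgf from 2, 4 and 1. The difference between the stimulations at Day 15 was -3.08 ± 0.35 (adjusted p = 7.07e-07), and it was -0.28 ± 0.35 at Day 12 (adjusted p = 0.525). The rise from Day 12 to Day 15 in +Wnt was 2.59 ± 0.35 (adjusted p = 5.37e-06). Dnahc6 reached 1 CPM only in the Day 15 +Wnt libraries and was tested only through them. The p-values of comparisons with that group thus come from the values that admitted the gene, and are no independent support.

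The outer arm heavy chains Dnahc9, Dnahc8 and Dnahc5 were also higher in Day 15 +Wnt than in Day 15 +Fgf. Dnahc9 measured, in CPM, 0.204, 0.401 and 0.0764 at Day 10, 0.190, 0.191 and 0.703 at Day 12 +Fgf, 0.755, 0.835 and 0.993 at Day 12 +Wnt, 0.737, 1.10 and 0.636 at Day 15 +Fgf and 2.92, 3.36 and 2.81 at Day 15 +Wnt. It rose from Day 12 to Day 15 in +Wnt (1.52 ± 0.30, adjusted p = 0.000255) and, with overlapping groups, in +Fgf (0.83 ± 0.30, adjusted p = 0.0254). The call in +Fgf was lost with RNA integrity as a covariate. These 2 changes did not differ past the threshold (-0.69 ± 0.42, adjusted p = 0.192). The difference between the stimulations was -0.89 ± 0.30 at Day 12 (adjusted p = 0.0192) and -1.58 ± 0.30 at Day 15 (adjusted p = 0.000171). Outside Day 15 +Wnt, Dnahc9 reached 1 CPM only in Day 15 +Fgf replicate 2, so that it too passed the filter through Day 15 +Wnt.
Dnahc8 measured, in CPM, 1.02, 1.00 and 1.76 at Day 10, 0.570, 0.382 and 0.0639 at Day 12 +Fgf, 1.26, 1.32 and 1.39 at Day 12 +Wnt, 0.221, 0.206 and 0.283 at Day 15 +Fgf and 1.61, 3.80 and 3.44 at Day 15 +Wnt. Its +Fgf libraries were below all others on both days, with a fall from Day 10 to Day 12 +Fgf of -1.35 ± 0.33 (adjusted p = 0.00239) and differences between the stimulations of -1.44 ± 0.33 at Day 12 (adjusted p = 0.00156) and -2.53 ± 0.33 at Day 15 (adjusted p = 3.3e-06). Its rise in +Wnt from Day 12 to Day 15 (0.93 ± 0.33, adjusted p = 0.0192) was lost without Day 15 +Wnt replicate 2 or 3.
Dnahc5, mutated in many cases of human primary ciliary dyskinesia, was highest on average before stimulation, in CPM 2.52, 1.47 and 2.45 at Day 10, 0.824, 0.765 and 0.511 at Day 12 +Fgf, 1.45, 0.835 and 1.46 at Day 12 +Wnt, 0.147, 0.343 and 0.283 at Day 15 +Fgf and 1.49, 1.42 and 0.701 at Day 15 +Wnt. Its fall from Day 10 to Day 12 +Fgf was -1.27 ± 0.29 (adjusted p = 0.00126), and the Day 15 difference was -1.40 ± 0.29 (adjusted p = 0.00036). The Day 15 call was lost with RNA integrity as a covariate, and a Day 15 +Fgf library held 2 to 5 reads of Dnahc5.

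Dnahc11, the dynein gene with the most reads, went the opposite way (chr12:117877982-118199043, minus strand). It measured, in CPM, 11.6, 12.4 and 12.8 at Day 10, 14.1, 12.6 and 12.0 at Day 12 +Fgf, 9.31, 8.7 and 8.47 at Day 12 +Wnt, 16.9, 17.0 and 15.5 at Day 15 +Fgf and 5.96, 6.94 and 5.40 at Day 15 +Wnt. All +Fgf libraries exceeded all +Wnt libraries, by 0.53 ± 0.11 at Day 12 (adjusted p = 0.000511) and 1.40 ± 0.11 at Day 15 (adjusted p = 4.96e-09). Its exons share 642 bases with those of Cdca7l on the other strand, and the strand setting of the counting is not given in the sources used here. The mean of Cdca7l in CPM was 49.5 before stimulation, 50.8 after Fgf and 35.4 after Wnt stimulation to Day 12, and 58.4 and 20.1, respectively, to Day 15, the same order of groups as in Dnahc11. The part of Cdca7l reads in the values of Dnahc11 was not tested. In all, 9 of the 13 dynein genes and 4 of the 21 Ift and Bbs genes share exon bases with another annotated gene.

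The other inner arm genes moved less. Dnahc1 measured, in CPM, 4.50, 4.61 and 5.43 at Day 10, 4.69, 4.91 and 5.17 at Day 12 +Fgf, 6.16, 5.22 and 6.29 at Day 12 +Wnt, 6.05, 5.01 and 5.02 at Day 15 +Fgf and 8.13, 8.87 and 6.73 at Day 15 +Wnt. It was lower in Day 15 +Fgf than in Day 15 +Wnt by -0.53 ± 0.14 (adjusted p = 0.00251), a call lost with RNA integrity as a covariate. Its change from Day 12 to Day 15 in +Wnt, 0.40 ± 0.14 (adjusted p = 0.0158), turned to -0.10 with quantile normalization.
Dnahc2 measured, in CPM, 0.545, 0.869 and 1.83 at Day 10, 1.90, 1.72 and 1.66 at Day 12 +Fgf, 2.08, 1.32 and 1.52 at Day 12 +Wnt, 2.80, 3.09 and 1.63 at Day 15 +Fgf and 3.47, 3.43 and 2.74 at Day 15 +Wnt. It rose from Day 12 to Day 15 in +Wnt (0.87 ± 0.29, adjusted p = 0.0139), a call lost without Day 12 +Wnt replicate 2, and did not differ past the threshold between the stimulations at Day 15 (-0.36 ± 0.29, adjusted p = 0.283).
Dnahc7b, a near copy of Dnahc7a with which it may share reads, measured, in CPM, 2.32, 2.34 and 1.99 at Day 10, 4.18, 3.82 and 3.32 at Day 12 +Fgf, 3.90, 3.90 and 2.91 at Day 12 +Wnt, 3.54, 4.12 and 3.18 at Day 15 +Fgf and 4.40, 4.47 and 4.70 at Day 15 +Wnt. Every later library exceeded every Day 10 library, with a rise of 0.69 ± 0.16 to Day 12 +Fgf (adjusted p = 0.00131) and 0.61 ± 0.16 to Day 12 +Wnt (adjusted p = 0.00289), as in the primary cilium genes.

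**Figure D3:**
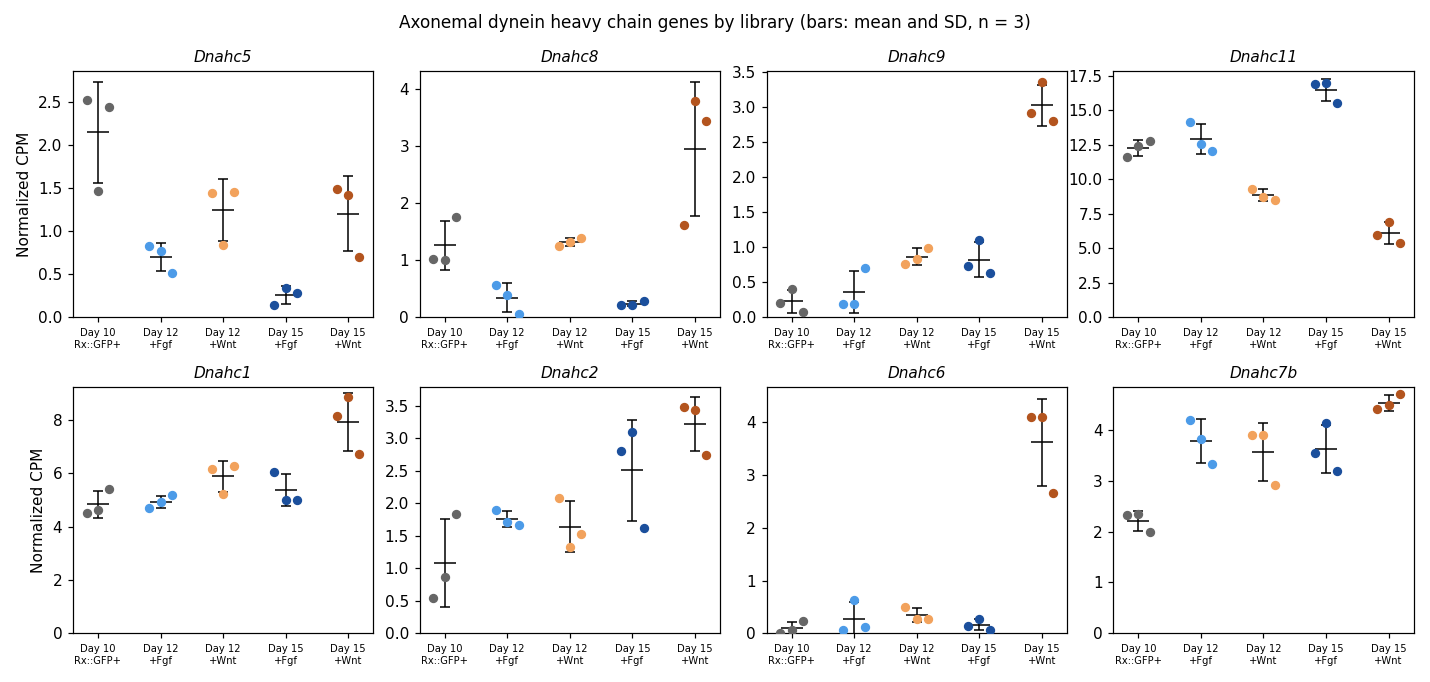
Normalized CPM (linear axes from 0, each panel with its own scale) of the 8 tested axonemal dynein heavy chain genes in the 15 libraries, with bars for the mean and SD of each group (n = 3). The Day 15 +Wnt libraries of Dnahc6 lie at 2.67 to 4.10 CPM and all others at or under 0.637 CPM, while Dnahc11 is lowest in Day 15 +Wnt.

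**Figure D4:**
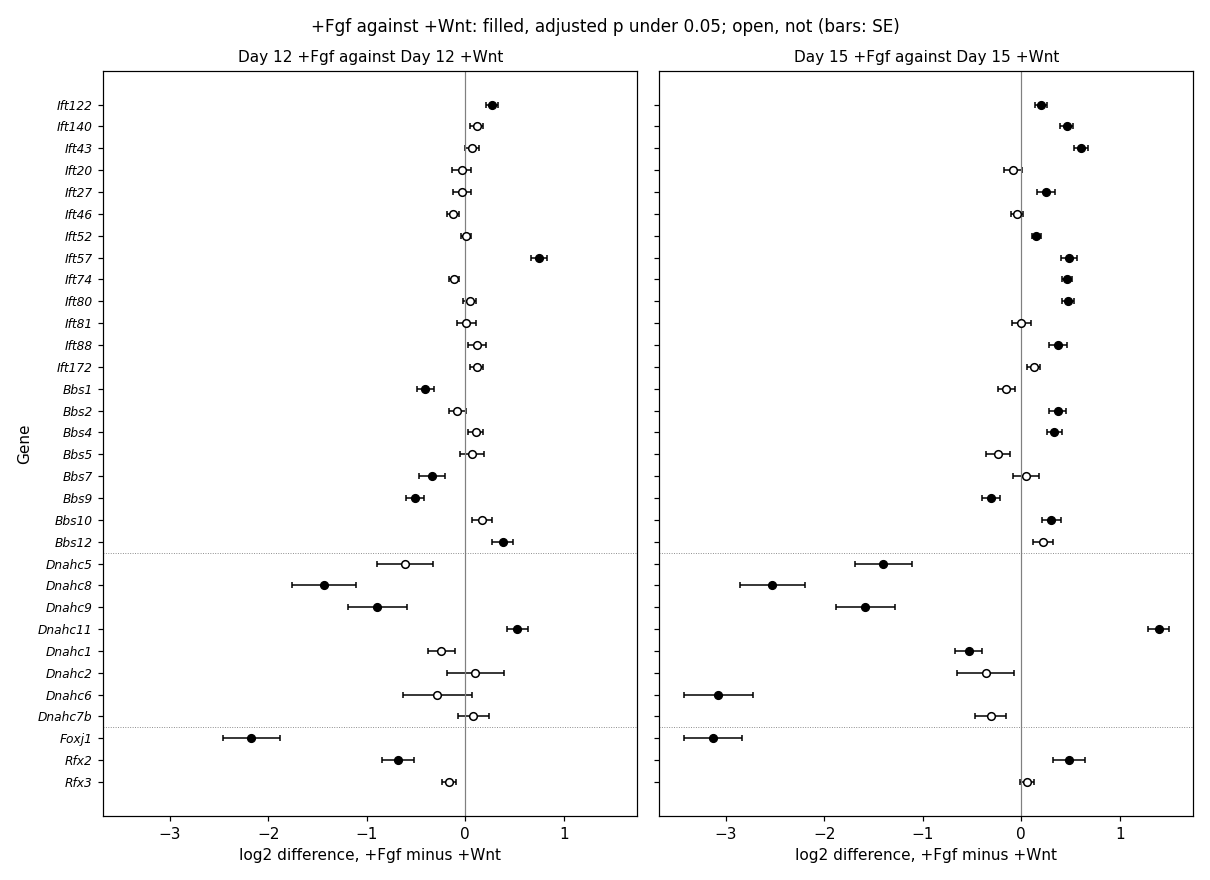
Log2 difference between +Fgf and +Wnt at Day 12 (left) and Day 15 (right) for the 32 tested genes, with bars for the standard error and filled points for adjusted p under 0.05. At Day 15 most Ift genes lie right of 0, by up to 0.60, and Foxj1 and Dnahc6 lie left of 0, at -3.13 and -3.08.

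The change from Day 12 to Day 15 itself differed between the stimulations for 8 of 32 members, 7 of them with the higher value in +Fgf, beside 47.9% of all genes tested (27.0% higher and 20.9% lower), a share below the background. These were Ift140, Ift43, Ift74, Ift80 and Bbs2 of the primary cilium, Dnahc11 and Rfx2 on the same side, and Dnahc6 on the other (-2.79 ± 0.49, adjusted p = 0.000208). For Foxj1 this difference was -0.96 ± 0.41 (adjusted p = 0.0656).

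Genes of motile cilia outside the naming rule were counted beside the dyneins. Of 36 listed (docking, assembly, radial spoke, central pair and tektin genes) 26 were tested, and in Day 15 +Fgf against Day 15 +Wnt 6 were higher and 14 lower, with a median of -0.25 beside 0.051 over all genes. In Day 15 +Wnt against Day 12 +Wnt 13 were higher and 6 lower. The share called in either direction was near the 68.7% and 68.0% of all genes. As with the dyneins, genes near 0 in other groups passed the filter through the group in which they were high, so that these counts describe the 26 tested and not the whole list. Rsph4a, a radial spoke head gene, measured, in CPM, 0.221, 0.137 and 0.353 at Day 15 +Fgf and 3.23, 3.43 and 2.74 at Day 15 +Wnt (-2.69 ± 0.34, adjusted p = 2.35e-06). Ccdc164, of the nexin link between doublets, measured 0.295, 0.824 and 0.495 CPM against 3.72, 5.07 and 4.35 CPM (-2.52 ± 0.33, adjusted p = 3.67e-06), and Spag6, of the central pair, 0.295, 0.824 and 0.565 CPM against 5.52, 4.85 and 3.30 CPM (-2.51 ± 0.33, adjusted p = 4e-06). At Day 12 Zmynd10, needed to assemble dynein arms, was already apart, with 1.46, 1.02 and 1.09 CPM in +Fgf and 5.66, 6.47 and 4.96 CPM in +Wnt (-2.02 ± 0.20, adjusted p = 2.69e-07).

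Of 7 factors of the multiciliated cell programme, 6 were tested, and at Day 12 and again at Day 15, 2 were higher and 4 lower in +Fgf than in +Wnt, beside 51.5% and 68.7% of all genes called in either direction on these days. Gmnc, which acts upstream of Foxj1 in multiciliated cells, measured, in CPM, 10.4, 7.69 and 9.63 at Day 10, 4.37, 6.5 and 1.28 at Day 12 +Fgf, 27.4, 33.5 and 39.3 at Day 12 +Wnt, 0, 0.549 and 0.353 at Day 15 +Fgf and 15.5, 17.2 and 10.2 at Day 15 +Wnt. Trp73, a further factor of that programme, measured, in CPM, 12.3, 8.42 and 10.1 at Day 10, 5.13, 7.58 and 0.831 at Day 12 +Fgf, 30.2, 41.1 and 47.3 at Day 12 +Wnt, 0.369, 1.65 and 3.75 at Day 15 +Fgf and 134, 139 and 94.8 at Day 15 +Wnt. In Day 12 +Fgf, replicate 3 was the lowest library of its group for Foxj1, Gmnc and Trp73 alike. Of the 6 factors tested, 1 was higher and 4 lower in Day 15 +Wnt than in Day 12 +Wnt, beside 32.5% and 35.5% of all genes. Whether Gmnc and Trp73 mark multiciliated cells in this tissue was not tested.
Myb and Foxn4 are on the same list but also act in retinal progenitors or neural proliferation, and both were higher in +Fgf. Foxn4 measured, in CPM, 118, 98.7 and 111 at Day 15 +Fgf and 0.0620, 0.0746 and 0.140 at Day 15 +Wnt, and Myb 213, 197 and 193 CPM against 5.83, 6.56 and 6.10 CPM. Markers of mature ependymal and multiciliated cells were low in sum but not level: of 8, Ccdc153 and Tmem212 had 0 reads in every library. The sum of all 8, Foxj1 included, was, in CPM, 19.2 to 23.0 at Day 10, 12.4 to 15.5 at Day 12 +Fgf, 24.5 to 31.9 at Day 12 +Wnt, 34.1 to 34.9 at Day 15 +Fgf and 33.2 to 42.9 at Day 15 +Wnt. In that list 1 gene was higher in Day 15 +Fgf (Tppp3, 1.77 ± 0.12) and 3 were lower, of 4 tested, beside 38.0% and 30.6% of all genes. The Day 15 groups did not overlap in 1 of the 8 with +Fgf higher and in 5 with +Fgf lower, beside 40.4% and 32.6% of all genes tested. The similar Day 15 sums thus hold genes of opposite direction.

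**Figure D5:**
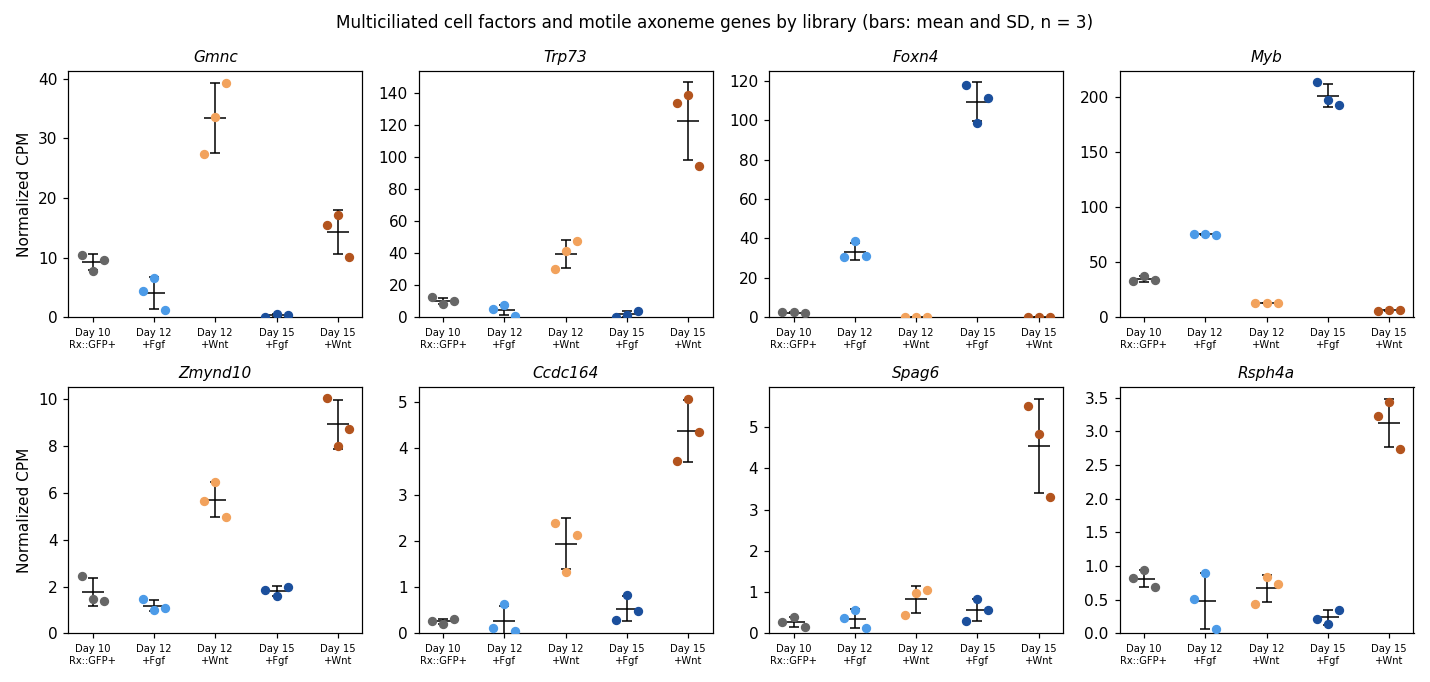
Normalized CPM (linear axes from 0, each panel with its own scale) of 4 factors of the multiciliated cell programme (Gmnc, Trp73, Foxn4, Myb) and 4 motile axoneme genes (Zmynd10, Ccdc164, Spag6, Rsph4a) in the 15 libraries, with bars for the mean and SD (n = 3). Gmnc and Trp73 are higher in the +Wnt libraries and Foxn4 and Myb in the +Fgf libraries, and Rsph4a reaches 2.74 to 3.43 at Day 15 +Wnt.

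Genes of primary cilium transport that carry other names were counted beside the Ift genes, with no test of a difference between the lists. Of 20 such genes (IFT subunits named Wdr, Ttc or Traf, the motors and their chains), all 20 tested, 11 were higher and 3 lower in Day 12 +Fgf against Day 10 (median 0.22 beside -0.0021 over all genes, of which 27.9% were higher and 27.8% lower). In Day 12 +Wnt 10 were higher and 3 lower (median 0.18 beside 0.0085, with 30.6% and 29.6% of all genes). In Day 15 +Fgf against Day 15 +Wnt 7 were higher and 7 lower (median 0.06 beside 0.051), near the 38.0% and 30.6% of all genes. Wdr35, an IFT-A subunit, was lower in Day 15 +Fgf (-0.82 ± 0.06, adjusted p = 4.59e-09), as was Dync2li1, a light intermediate chain of the returning motor (-0.71 ± 0.10, adjusted p = 7.61e-06). At Day 12 Kif3a, a subunit of the kinesin that drives transport, was higher in +Fgf (0.83 ± 0.05, adjusted p = 9.61e-10). Of 5 BBSome partners, 3 were higher and 0 lower in Day 15 +Fgf, beside 68.7% of all genes called in either direction, with the largest difference in Lztfl1 (0.56 ± 0.08, adjusted p = 6.11e-06), which regulates BBSome traffic.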

How the data were processed

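RNA-Seq libraries of 15 mouse samples were used, 3 replicates in each of 5 groups taken from the labels. Paired reads were aligned by the authors to the mm10 genome with Tophat (2.0.8b), who then counted fragments on the UCSC transcriptome with Cuffdiff (Cufflinks 2.1.1) and computed normalized CPM with edgeR (3.2.4). The deposited values were treated as a normalized signal, since columns sum to 936418 to 1075448. Whole reads were recovered by the value of 1 read from 100% of the values (tolerance 0.05 reads), and edgeR's quasi-likelihood test on them was the alternative. Strand setting and read filters are not given in the sources used here.

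The main test was limma (3.58.1, R 4.3.3, trend, 1 fit of 5 group means) on log2(value + 0.3), for genes that reached 1 CPM, relative to the column total, in 3 or more libraries, and Benjamini-Hochberg adjustment within each of 6 comparisons and 1 interaction. edgeR 4.0.16 served for the count test. Both were tested on simulated data. The members, gene lists and tests were chosen with earlier results of these data known. Values in every library were given for the 3 factors, for tested dynein genes, and for the Ift and Bbs genes among the 3 largest increases or decreases past the threshold in a comparison. Of other lists at most the 3 largest changes in a comparison were named. Alternatives were pseudocounts of 0.05 and 1, no filter and one of 10 CPM, median-of-ratios and quantile scaling, RNA integrity as a covariate, the replicate block, only the groups compared, edgeR, and each library left out.

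Same-numbered libraries of different groups did not deviate together (r from -0.25 to 0.24 over 30 pairs, 7 over 0.1), so replicate numbers were not used to pair samples. No pair of replicates agreed within sampling noise (chi-square per degree of freedom 2.68 to 8.60). Positions, transcript lengths and exon overlaps came from GENCODE vM21 (GRCm38, also called mm10), and all 37 genes were matched by accession or synonym. Dnah and Dnai are the current names of most Dnahc and Dnaic genes.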

Additional observations from a re-analysis of the deposited data

Results flagged for a closer look

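The change from Day 12 to Day 15 differed between +Fgf and +Wnt, by the interaction contrast of the same limma fit, for 8 members, and no explanation was weighed. The value given is the change in +Fgf minus that in +Wnt on the log2 scale. Of the primary cilium genes, it was 0.34 ± 0.09 for Ift140 (adjusted p = 0.00635), 0.54 ± 0.10 for Ift43 (adjusted p = 0.000394), 0.58 ± 0.07 for Ift74 (adjusted p = 6.51e-06), 0.43 ± 0.09 for Ift80 (adjusted p = 0.000762) and 0.45 ± 0.12 for Bbs2 (adjusted p = 0.00562). The calls of Ift140, Ift80 and Bbs2 were lost with RNA integrity as a covariate. Dnahc11 gave 0.87 ± 0.15 (adjusted p = 0.000168), with the overlap with Cdca7l given above. Dnahc6 gave -2.79 ± 0.49 (adjusted p = 0.000208), which rests on 66, 55 and 38 reads in Day 15 +Wnt and at most 10 in any other library. It passed the filter only through those Day 15 +Wnt libraries. Rfx2 gave 1.17 ± 0.23 (adjusted p = 0.000496), falling in +Wnt and rising in +Fgf.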

How the results depend on the processing

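The counts of members past the threshold moved by over 1.5 times only with RNA integrity as a covariate: from 22 to 14 in Day 12 +Fgf against Day 10, from 12 to 2 in Day 15 +Fgf against Day 12 +Fgf, from 21 to 10 in Day 15 +Fgf against Day 15 +Wnt, and from 8 to 5 for the difference between the changes. Over all 13845 genes tested, the counts moved from 7716 to 5608, 7899 to 3591, 9505 to 6362 and 6636 to 3842, respectively. RNA integrity was lower in every Day 15 +Fgf library than in every Day 12 +Fgf and Day 15 +Wnt library. It was higher in every Day 12 +Fgf library than in every Day 10 library. Integrity and group thus cannot be fully told apart in these comparisons, and the cause was not tested. Leaving out 1 library at a time gave 17 to 20, 17 to 22 (Day 12 +Wnt against Day 10), 9 to 12, 13 to 18 (Day 15 +Wnt against Day 12 +Wnt), 10 to 12 (Day 12 +Fgf against Day 12 +Wnt), 18 to 21 and 8 to 11 members in these and the remaining comparisons. With the replicate block the counts were 22, 20, 12, 18, 11, 22 and 8, and 3 calls were gained and 0 lost, although the numbers were not found to pair the samples. The single reversed value was that of Dnahc1 from Day 12 to Day 15 in +Wnt, -0.10 with quantile normalization; the cause was not tested. Differences of dynein genes with few reads depended on the pseudocount, from -1.98 to -4.19 for Dnahc6 at Day 15 with pseudocounts of 1 and 0.05. Few reads limit the dynein genes, 5 of which could not be tested.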

Other observations

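Of 19 genes of the transition zone, the gate at the base of the cilium, 18 were tested. In Day 12 +Fgf against Day 10, 9 were higher and 2 lower (median 0.20 beside -0.0021 over all genes), a share near the 55.7% of all genes called. In Day 12 +Wnt against Day 10, which shares the Day 10 libraries, 12 were higher and 1 lower (median 0.37 beside 0.0085), beside 60.2% of all genes called. In Day 15 +Fgf against Day 15 +Wnt 10 were higher and 3 lower (median 0.23 beside 0.051), near the 68.7% of all genes. Cep290, mutated in retinal ciliopathies, was higher in Day 15 +Fgf than in Day 15 +Wnt (0.73 ± 0.09, adjusted p = 1.67e-06).

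Of 6 further Rfx genes 4 were tested, of which 2 were lower in +Fgf than in +Wnt at Day 12 and 2 at Day 15, beside 25.2% and 30.6% of all genes lower. Rfx4, an RFX factor of the developing brain, measured, in CPM, 14.2, 14.8 and 14.5 at Day 10, 5.77, 6.31 and 1.15 at Day 12 +Fgf, 36.3, 33.9 and 38.2 at Day 12 +Wnt, 0.590, 0.824 and 3.75 at Day 15 +Fgf and 16.7, 22.7 and 17.4 at Day 15 +Wnt. It was lower in +Fgf than in +Wnt by -3.23 ± 0.50 at Day 12 (adjusted p = 4.18e-05) and -3.58 ± 0.50 at Day 15 (adjusted p = 7.38e-06).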
